A study of Homo sapiens with 9 samples.

Results

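The genes described here are 10 transcription factor genes that build, maintain or end the B cell program: EBF1, TCF3, ID2, PAX5, POU2F2, POU2AF1, SPIB, IKZF1, BACH2 and PRDM1. They were chosen by gene symbol, and each of the 10 was found on a single row of the array, among 20893 transcript clusters tested and 17705 that carry a gene symbol. RNA was measured on 9 Clariom S arrays, which read human transcript clusters, in 3 groups of 3 arrays each, all of the line L-1236, which was established from a Hodgkin lymphoma. The control group is called v2 and wild type in the labels and carries the lentiCRIPSPR_v2 vector (spelled as in the labels) with no LTA guide named. Clone g2_1 carries the vector with a guide against exon 2 of LTA (lentiCRIPSPR_v2-LTA_g2), and clone g3_4 with a guide against exon 4. LTA encodes lymphotoxin alpha, a cytokine of the tumour necrosis factor family. All groups therefore share the vector and the parent line, and each knockout group is 1 clone grown from a single cell, so that a difference between a knockout group and the control can also be a difference between clones: the design cannot tell them apart. Medium conditioned by L-1236 cells was used to grow the knockout clones until it was replaced by normal medium for the last 72 h, and the labels do not say how the control cells were kept before that time. Whether arrays of a group stand for separate cultures is not stated in the labels. The spread behind each p-value is that between these arrays and may be technical.

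B cell identity is set in steps. The E protein encoded by TCF3 (E2A) and the early factor EBF1 open the B cell genes, PAX5 commits the cell to the lineage, and the octamer factor POU2F2 (Oct-2) with its coactivator POU2AF1 (OCA-B, BOB.1), the Ets factor SPIB and the zinc finger factor IKZF1 (Ikaros) keep mature B cells going. BACH2 holds back PRDM1 (Blimp-1), the repressor that shuts this program down when a B cell becomes a plasma cell, while ID2 binds E proteins and blocks them from DNA. Hodgkin and Reed-Sternberg cells are known for having silenced much of the program although they descend from germinal centre B cells, and for high ID2.

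The RNA of LTA itself was lower in both clones. LTA read 11.58, 11.07 and 11.08 on control arrays 1, 2 and 3, 7.97, 7.53 and 7.11 in g2_1 and 6.94, 7.25 and 6.61 in g3_4, on the log2 scale of the deposited values. It fell by 3.71 in g2_1 and by 4.31 in g3_4 on that scale (limma, adjusted p = 1.47e-06 and 4.21e-07). Control array 1 stood apart from the other control arrays: 380 transcript clusters lay at least 1 log2 unit from both of them, against 0 to 22 on each of the other 8 arrays. That array was the lowest control for 6 of the 10 transcription factor genes and the highest for the other 4, and values without it are given beside the results that it moves most. Arrays numbered 1 in all 3 groups also had the highest RNA integrity number, 10, against 9.5 to 9.6 on the rest. Array medians were 6.15 to 6.19 in the clones and 6.27 to 6.29 in the control, so that setting all medians equal moves every change upward by 0.11. Per array, the mean log2 value over 4 measured B cell markers was 6.16 to 6.34 in the control, 5.89 to 5.97 in g2_1 and 5.99 to 6.08 in g3_4. PAX5, 1 of the 10 genes, is itself 1 of these 4 markers, and without it the means were 5.86 to 5.91, 5.71 to 5.78 and 5.81 to 5.95. MS4A1 (CD20) read 4.22 to 4.56 on all 9 arrays, below the first quartile of all values at 4.63. The mean of 8 Hodgkin and Reed-Sternberg cell markers was 9.97 to 10.17 in the control, 9.75 to 9.79 in g2_1 and 9.30 to 9.52 in g3_4. These markers did not move together. In g2_1 and g3_4, TNFRSF8 was called higher (0.79 and 0.70), and CD274 (-2.03 and -2.36) and CCL22 (-1.26 and -1.10) lower. CD70 was called higher in g2_1 (1.41) and lower in g3_4 (-0.94), and CCL17 lower in g3_4 only (-0.98). FSCN1, CCR7 and IRF4 were called in neither clone. The mean of 9 T cell markers was 5.62 to 6.02 in the control, 6.33 to 6.40 in g2_1 and 6.26 to 6.37 in g3_4, with CD2, CD4 and CD247 higher in both clones and the defining markers CD3D, CD3E and CD3G at 3.89 to 4.98 on every array. TRAT1 was called higher in g2_1 (0.65) and did not pass in g3_4 (0.29). Myeloid (9 markers), fibroblast (6) and plasma cell (5) lists held no marker called in both clones, with array means of 5.19 to 5.39, 5.35 to 5.65 and 5.95 to 6.64. The myeloid marker CD68 (0.73) and the plasma cell marker JCHAIN (0.58) were called higher in g3_4 and did not pass in g2_1 (0.64 and 0.46). The plasma cell mean of 6.64 was in the control, where MZB1 read 9.21, 6.70 and 7.09. In the clones that mean reached 6.19 in g2_1 and 6.04 in g3_4. The part of these markers in the results that follow was not tested. RNA came from whole cultures, in which fewer expressing cells and less RNA per cell cannot be told apart.

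Of the 10 genes, EBF1 was higher and PAX5 and POU2AF1 were lower in both clones, BACH2 passed as higher in g2_1 and did not pass in g3_4, and the other 6 did not pass the test in either clone. A gene was called at a Benjamini-Hochberg adjusted p below 0.05, adjusted over all 20893 clusters, with no limit on the size of the change. In g2_1, 2 of the 10 genes were called higher and 2 lower, where 6.19% of all clusters were called higher and 8.06% lower. In g3_4, 1 was called higher and 2 lower, against 6.12% and 8.16% of all clusters. The same direction was called in both clones for 1 higher and 2 lower genes, and for 4.48% and 6.97% of all clusters. The median log2 fold change over the 10 genes was 0.17 in g2_1 and 0.26 in g3_4, and over all clusters 0.03 in each. For 6 of the 10 genes (EBF1, PAX5, TCF3, POU2AF1, SPIB and PRDM1) all 6 clone arrays lay on the same side of all 3 control arrays, which was so for 20.4% of all clusters. Between the clones themselves none of the 10 genes was called (limma; 1 of the 10 had an unadjusted p below 0.05), and 0.0526% of all clusters were. Both clones were compared with the same 3 control arrays, so their changes are not independent of each other and are set side by side here.

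**Figure D1:**
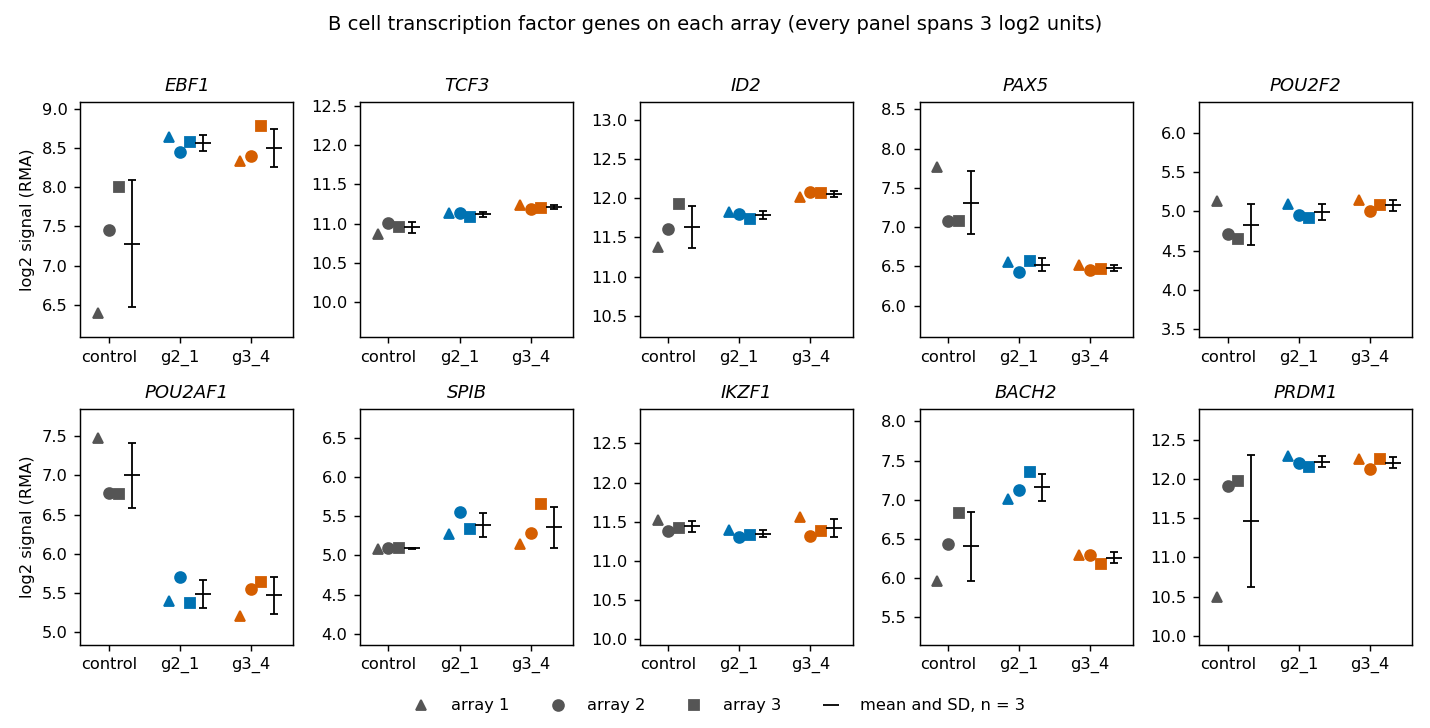
Log2 signal of each of the 10 transcription factor genes on each of the 9 arrays, with array number as the symbol and the mean and SD (n = 3) as a bar; every panel spans 3 log2 units. EBF1 lies higher in all 6 clone arrays (8.33 to 8.78) than in the control (6.40 to 8.0), PAX5 and POU2AF1 lie lower, and BACH2 is the gene whose clones separate most.

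EBF1, on chromosome 5, the factor that opens B cell genes early in the lineage, rose in both clones. The RefSeq window around its start (GRCh38.p14, chr5:159097907-159098206, minus strand, 250 bases before to 50 after the start) is shown because EBF1 changed in both clones and because it holds motif letters of other factors in the group. Capitals mark an E box and a PRDM1-type motif.
EBF1: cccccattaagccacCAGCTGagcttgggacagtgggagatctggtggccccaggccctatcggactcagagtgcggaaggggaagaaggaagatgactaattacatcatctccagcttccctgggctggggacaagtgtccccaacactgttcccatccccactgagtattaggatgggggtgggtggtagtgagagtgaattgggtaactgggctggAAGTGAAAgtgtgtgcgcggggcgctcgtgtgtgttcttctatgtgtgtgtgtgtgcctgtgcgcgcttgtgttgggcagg
The E box reads CAGCTG at position -235 from the start; the E box search used CAGNTG on both strands, and 49.9% of 35116 RefSeq windows of the same 300 bases hold it. The PRDM1-type letters AAGTGAAA, which also fall within the sites of interferon regulatory factors, begin at position -31 and occur on either strand in 1.62% of windows. Such a match describes letters and not a bound site.

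On control arrays 1, 2 and 3 EBF1 read 6.40, 7.45 and 8.0, in g2_1 8.64, 8.45 and 8.58, and in g3_4 8.33, 8.40 and 8.78. Every clone array was above every control array, and the control arrays spread over far more than those of either clone (SD 0.81 against 0.10 and 0.24, n = 3 each). EBF1 rose by 1.27 (SE 0.31; 95% interval 0.58 to 1.96), or 2.42-fold, in g2_1 (limma, adjusted p = 0.0194). In g3_4 it rose by 1.22 (SE 0.31; 0.53 to 1.91), or 2.33-fold (adjusted p = 0.0239). The clones differed by -0.05 (95% interval -0.74 to 0.64). Without control array 1 the rises were 0.83 and 0.78, still called (limma, adjusted p = 0.00821 and 0.0118). Leaving out a clone array ended the call of that clone: in g2_1 the adjusted p was 0.0663, 0.0536 and 0.0640 without arrays 1, 2 and 3, and in g3_4 0.0514, 0.0613 and 0.0949. The other genes of the EBF family, EBF2, EBF3 and EBF4, did not pass in either clone, EBF4 coming nearest with 0.26 and 0.30 (limma, adjusted p = 0.124 and 0.0687).

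TCF3, on chromosome 19, encodes the E proteins E12 and E47. It read 10.87, 11.01 and 10.96 in the control, 11.13, 11.14 and 11.09 in g2_1 and 11.24, 11.19 and 11.20 in g3_4. The groups were ordered control, g2_1, g3_4 with no overlap between any pair, but the steps were small: 0.17 in g2_1 (95% interval -0.02 to 0.36; limma, adjusted p = 0.247) and 0.26 in g3_4 (0.07 to 0.45; adjusted p = 0.0706). After setting the array medians equal the changes were 0.29 and 0.37 and both passed (adjusted p = 0.0457 and 0.0147), so the call of TCF3 turns on the scaling.

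ID2, on chromosome 2, encodes the inhibitor that pairs with E proteins and keeps them off DNA. It read 11.38, 11.60 and 11.92 in the control, 11.82, 11.80 and 11.73 in g2_1 and 12.01, 12.08 and 12.07 in g3_4. The g2_1 arrays lay inside the control range, and all 3 g3_4 arrays lay above both other groups. The difference from the control was 0.15 in g2_1 (95% interval -0.13 to 0.43; limma, adjusted p = 0.546) and 0.42 in g3_4 (SE 0.13; 0.14 to 0.70; adjusted p = 0.0521), just short of the threshold. In g3_4 it passed without control array 3, at 0.56 (adjusted p = 0.00660), with equal array medians, at 0.53 (0.0175), and with the array number as a block, at 0.42 (0.0446). Without control array 1, the lowest, ID2 moved further from the threshold, to 0.29 in g3_4 (adjusted p = 0.120) and 0.02 in g2_1 (0.933). Between the clones ID2 differed by 0.27 (95% interval -0.01 to 0.55). Of the other inhibitors of E proteins, ID1, ID3, ID4 and MSC (musculin, ABF-1), none passed: the MSC differences were 0.36 and 0.18 (limma, adjusted p = 0.345 and 0.685), and 0.08 and -0.10 without control array 1, so that the sign in g3_4 turned.

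PAX5, on chromosome 9, the commitment factor of the B lineage, fell in both clones. The RefSeq window of its start (GRCh38.p14, chr9:37034219-37034518, minus strand) is printed as the counterpart to that of EBF1.
PAX5: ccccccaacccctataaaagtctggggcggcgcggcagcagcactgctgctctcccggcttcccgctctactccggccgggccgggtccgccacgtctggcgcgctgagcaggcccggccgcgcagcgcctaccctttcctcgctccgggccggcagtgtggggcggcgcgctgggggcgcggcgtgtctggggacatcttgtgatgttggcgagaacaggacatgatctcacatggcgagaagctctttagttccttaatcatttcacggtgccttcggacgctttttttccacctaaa
No letters are in capitals, since none of the 5 motifs searched is in this window. Besides the E box and the PRDM1-type letters these were the octamer ATGCAAAT (1.77% of windows), the EBF core CCCNNGGG (19.1%) and the AP-1 and BACH core TGAGTCA (4.95%), each on both strands. Of the 10 genes 9 had at least 1 RefSeq window, 12 windows in all, and no window of the group held the octamer. SPIB held the EBF core as CCCACGGG at position -202, ID2 as CCCGCGGG at -181 and IKZF1 as CCCGCGGG at -177. E boxes were not particular to EBF1: they also lay in POU2F2 (positions -245 and 2), ID2 (-205), IKZF1 (-239) and PRDM1 (-90, its first window). PRDM1 held TGACTCA, the AP-1 and BACH core read on the other strand, at position -42 of its second window.

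PAX5 read 7.77, 7.08 and 7.08 in the control, 6.55, 6.43 and 6.57 in g2_1 and 6.52, 6.45 and 6.47 in g3_4. All 6 clone arrays were below all 3 control arrays, and the clones overlapped each other. PAX5 fell by 0.79 (SE 0.17; 95% interval -1.16 to -0.43), or 1.73-fold, in g2_1 (limma, adjusted p = 0.00825). It fell by 0.83 (SE 0.17; -1.20 to -0.46), or 1.78-fold, in g3_4 (adjusted p = 0.00638). Without control array 1, the highest, the changes were -0.56 and -0.60 (limma, adjusted p = 0.00233 and 0.00160), and the call held in both clones when any 1 of the 9 arrays was left out.

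The genes around PAX5 on chromosome 9 were lower too. Among its 25 nearest measured genes on each side, 19 of 50 were called lower and 0 higher in both clones, with medians of -0.22 and -0.16. Over all clusters 6.97% were called lower and 4.48% higher in both clones. Of the 26 neighbours that lay above the median level of all clusters, 17 were called lower. The share called lower among all clusters above that level was not counted. The medians of these 26 neighbours were -0.87 in g2_1 and -0.80 in g3_4, about the size of the fall of PAX5 itself. The adjacent genes were MELK on the one side, at -0.70 and -0.78, and ZCCHC7 on the other, at -1.32 and -1.34. The neighbourhoods of the other 9 genes had medians between -0.07 and 0.18 over all neighbours and held at most 5 genes called lower. Over their neighbours above the median level the medians were between -0.19 and 0.24. Around TCF3 these medians were 0.17 in g2_1 and 0.24 in g3_4, near the changes of TCF3 itself, 0.17 and 0.26, which did not pass.

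**Figure D2:**
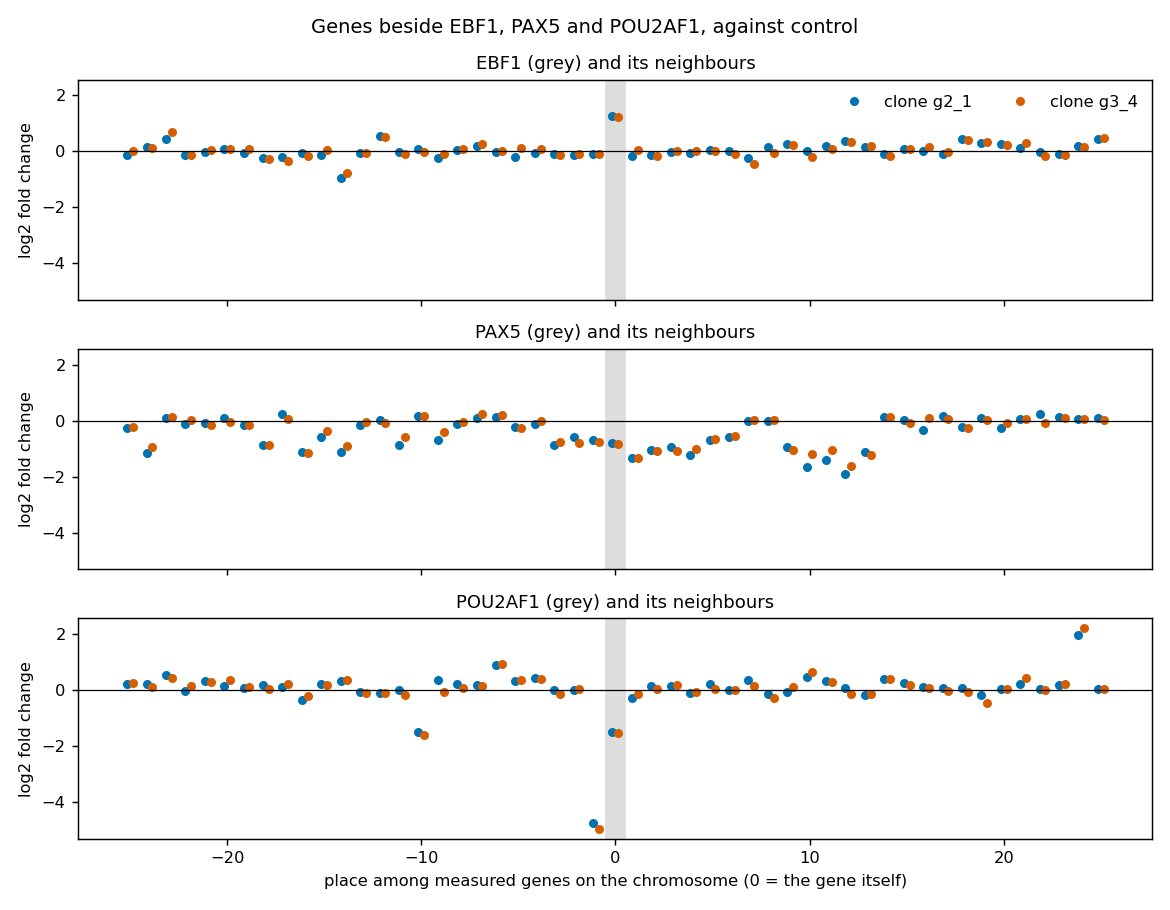
Log2 fold change against control of the 25 nearest measured genes on each side of EBF1, PAX5 and POU2AF1, in chromosome order, in clone g2_1 (blue) and clone g3_4 (orange); the grey band marks the gene itself. Around PAX5 19 of 50 neighbours were called lower in both clones, against 1 around EBF1, 2 around POU2AF1 and 6.97% of all clusters. Of the 2 around POU2AF1, POU2AF3, next to it, lies at -4.74 and -4.96.

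Of the octamer factor and its coactivator, the first did not pass in either clone and the second fell in both, a contrast between genes that was not tested. POU2F2, on chromosome 19, which binds the octamer in immunoglobulin promoters, read 5.13, 4.71 and 4.65 in the control, 5.10, 4.95 and 4.92 in g2_1 and 5.15, 5.01 and 5.08 in g3_4. Its differences of 0.16 and 0.25 did not pass (limma, adjusted p = 0.523 and 0.270), and the control range took in all g2_1 arrays. Without control array 1 they were 0.31 and 0.40, and the g3_4 difference passed (adjusted p = 0.0704 and 0.0235).

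POU2AF1, on chromosome 11, encodes the B cell coactivator that docks onto octamer factors on DNA, and it had the largest change of the 10 genes. It read 7.48, 6.77 and 6.76 in the control, 5.40, 5.70 and 5.38 in g2_1 and 5.21, 5.55 and 5.64 in g3_4. The lowest control array was more than 1 log2 unit above the highest clone array. POU2AF1 fell by 1.51 (SE 0.20; 95% interval -1.94 to -1.08), or 2.85-fold, in g2_1 (limma, adjusted p = 4.10e-04). In g3_4 it fell by 1.54 (SE 0.20; -1.97 to -1.10), or 2.90-fold (adjusted p = 3.73e-04). Without control array 1 the changes were -1.27 and -1.30, and the call held without any 1 of the 9 arrays.

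The gene next to POU2AF1 on chromosome 11, POU2AF3, a member of the same family of octamer coactivators that was picked after its values were seen, fell further. POU2AF3 read 10.66, 9.01 and 8.99 in the control, 4.98, 4.76 and 4.71 in g2_1 and 4.48, 4.66 and 4.64 in g3_4. It fell by 4.74 and 4.96 (SE 0.35; limma, adjusted p = 6.31e-06 and 4.19e-06), and by 4.18 and 4.41 without control array 1. Like POU2AF1, it was highest on control array 1, and its clone arrays lay between 4.48 and 4.98. The other family member beside it, POU2AF2, stayed at 4.61 to 5.10 on all 9 arrays, with differences of 0.00 and 0.04 that did not pass. Its control arrays, at 4.73 to 5.02, already lay near the first quartile of all values, 4.63. A fall as large as that of POU2AF3 could not show from that level. Over the 50 neighbours of POU2AF1 the medians were 0.11 and 0.06, with 3 called higher and 2 lower in both clones. Over all clusters 4.48% were called higher and 6.97% lower.

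SPIB, on chromosome 19, encodes an Ets factor of mature B cells that is close kin to PU.1. It read 5.08, 5.10 and 5.09 in the control, 5.28, 5.56 and 5.34 in g2_1 and 5.15, 5.29 and 5.65 in g3_4. All clone arrays were above the narrow control range, 1 of g3_4 only just, and the differences of 0.30 and 0.27 did not pass (limma, adjusted p = 0.180 and 0.234). With equal array medians the g2_1 difference was 0.42 and passed (adjusted p = 0.0461). SPI1, the gene of PU.1 itself, differed by 0.06 and 0.10 and did not pass either.

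IKZF1, on chromosome 7, encodes Ikaros, which all lymphoid lineages need. It read 11.52, 11.38 and 11.42 in the control, 11.40, 11.31 and 11.33 in g2_1 and 11.56, 11.32 and 11.38 in g3_4. The 3 groups overlapped, and the differences of -0.09 (95% interval -0.31 to 0.12) and -0.02 (-0.24 to 0.20) were smaller than the interval around them. Their sign turned with equal array medians, at 0.02 and 0.09, and without control array 1 they were -0.05 and 0.02.

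BACH2 and PRDM1, both on chromosome 6, oppose each other at the step to the plasma cell. BACH2 was the gene on which the clones parted: it read 5.96, 6.44 and 6.83 in the control, 7.01, 7.12 and 7.35 in g2_1 and 6.30, 6.30 and 6.18 in g3_4. All g2_1 arrays lay above the other 6, while the g3_4 arrays lay within the control range. BACH2 rose by 0.75 (SE 0.19; 95% interval 0.34 to 1.16), or 1.68-fold, in g2_1 (limma, adjusted p = 0.0207). In g3_4 the difference was -0.15 (-0.56 to 0.26; adjusted p = 0.693), and -0.37 without control array 1 (-0.68 to -0.07; adjusted p = 0.108). The rise in g2_1 was 0.52 without control array 1 (adjusted p = 0.0281), and it no longer passed when control array 2 was left out (0.77; adjusted p = 0.0522), nor on leaving out array 2 (0.77; 0.0600) or array 3 (0.66; 0.0863) of g2_1.

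The difference between the clones in BACH2 was -0.90 (g3_4 minus g2_1; SE 0.19; 95% interval -1.31 to -0.49). Its unadjusted p was 5.79e-04, and it did not pass over all clusters (limma, adjusted p = 0.282). It did pass in a fit of the 6 clone arrays alone (adjusted p = 0.0237), with arrays weighted by their quality (0.0168) and without control array 1 (0.0215), and not with the array number as a block (0.111). The BACH2 arrays of the clones did not overlap, as was so for 3 of the 10 genes (with TCF3 and ID2) and for 11.5% of all clusters.

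PRDM1 read 10.49, 11.91 and 11.98 in the control, 12.29, 12.21 and 12.15 in g2_1 and 12.25, 12.13 and 12.26 in g3_4. Every clone array was above every control array, but control array 1 was more than 1 log2 unit below the other control arrays. The differences of 0.76 (95% interval 0.07 to 1.44) and 0.75 (0.07 to 1.44) did not pass (limma, adjusted p = 0.149 and 0.152). Without control array 1 each was 0.27, again short of the threshold (adjusted p = 0.103 and 0.107).

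**Figure D3:**
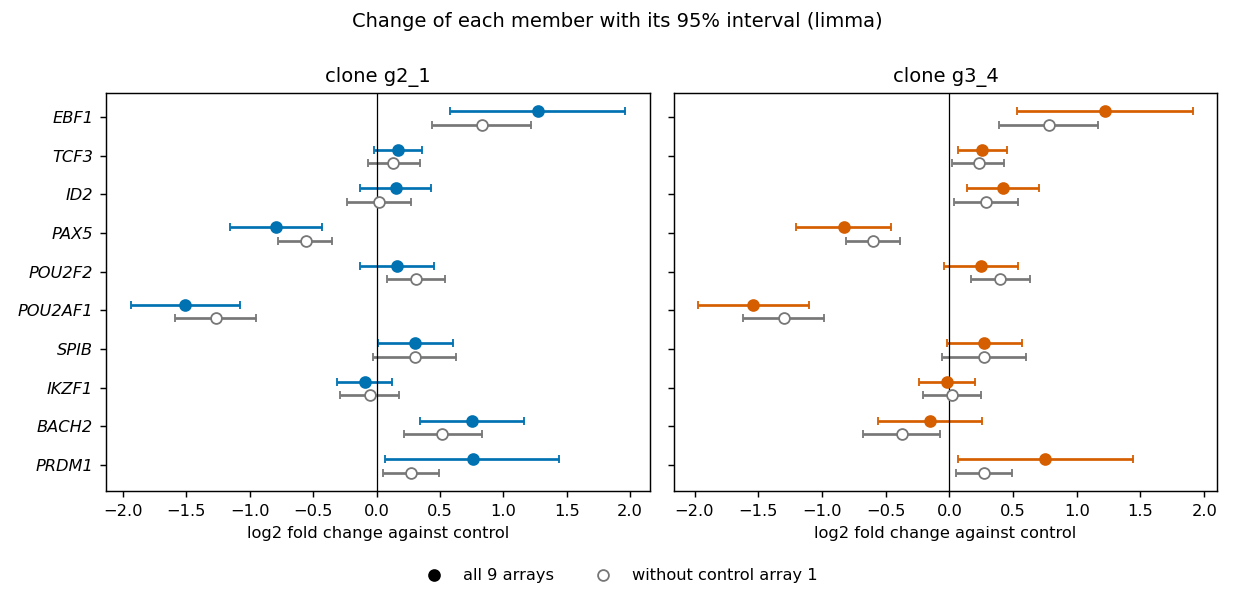
Log2 fold change against control of each of the 10 genes in clone g2_1 (left) and clone g3_4 (right) with its 95% interval from limma, over all 9 arrays (filled) and without control array 1 (open). POU2AF1 and PAX5 stay below 0 and EBF1 above 0 in both clones with and without that array, while PRDM1 moves from 0.76 and 0.75 to 0.27 and BACH2 is above 0 in g2_1 only.

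Among 28 measured transcription factor genes of the B lineage outside the 10 (of 30 listed), 3 were called higher (10.7%) and 8 lower (28.6%) in both clones, against 4.48% and 6.97% of all clusters, with medians of -0.05 in g2_1 and -0.09 in g3_4. BCL11A, a zinc finger factor needed early in B cell development, fell the furthest: it read 10.32, 9.29 and 9.34 in the control, 5.36, 4.77 and 4.66 in g2_1 and 4.71, 5.08 and 4.93 in g3_4. BCL11A fell by 4.72 and 4.74 (SE 0.27; limma, adjusted p = 6.69e-07 and 6.22e-07), and no control array came near the clone arrays. RUNX1, FOXP1 and IKZF2 (Helios) were also lower, by -1.36 and -1.05, -1.32 and -0.85, and -1.04 and -1.24 in g2_1 and g3_4.

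FOXO1, which works with EBF1 and E proteins at early B cell genes, was higher, by 1.01 and 1.07 (limma, adjusted p = 0.00441 and 0.00311), and so were ELF1, by 0.65 and 0.91, and ZBTB7A, by 0.33 and 0.38. ELF1 lost its call in g2_1 without g2_1 array 1 or 3 (adjusted p up to 0.0631). The call of ZBTB7A held in both clones in 1 of 9 fits, the one without control array 2, with adjusted p up to 0.113 and 0.0584 in the others. The other E protein genes, picked here as kin of TCF3 after their values were seen, were lower. TCF12 fell by 1.11 and 1.04 and kept its call whichever array was left out. TCF4 fell by 0.96 and 0.89 (limma, adjusted p = 0.0276 and 0.0390) with control array 1 at 11.24 and the other control arrays at 9.94 and 10.67, and without that array it was -0.57 in g3_4 (adjusted p = 0.0620). The call of TCF4 in both clones held only without control array 2 among the 9 fits, and adjusted p reached 0.0975 and 0.119 in the others. BACH1, the sister gene of BACH2, was lower by -0.65 and -0.53, and ETS1 by -0.60 and -0.45. BACH1 lost its call without control array 2 or 3 or g3_4 array 1 (adjusted p up to 0.0849 in g3_4). IRF4, at 0.17 and 0.17, and IKZF3 (Aiolos), at -0.18 and -0.23, did not pass.

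**Figure D4:**
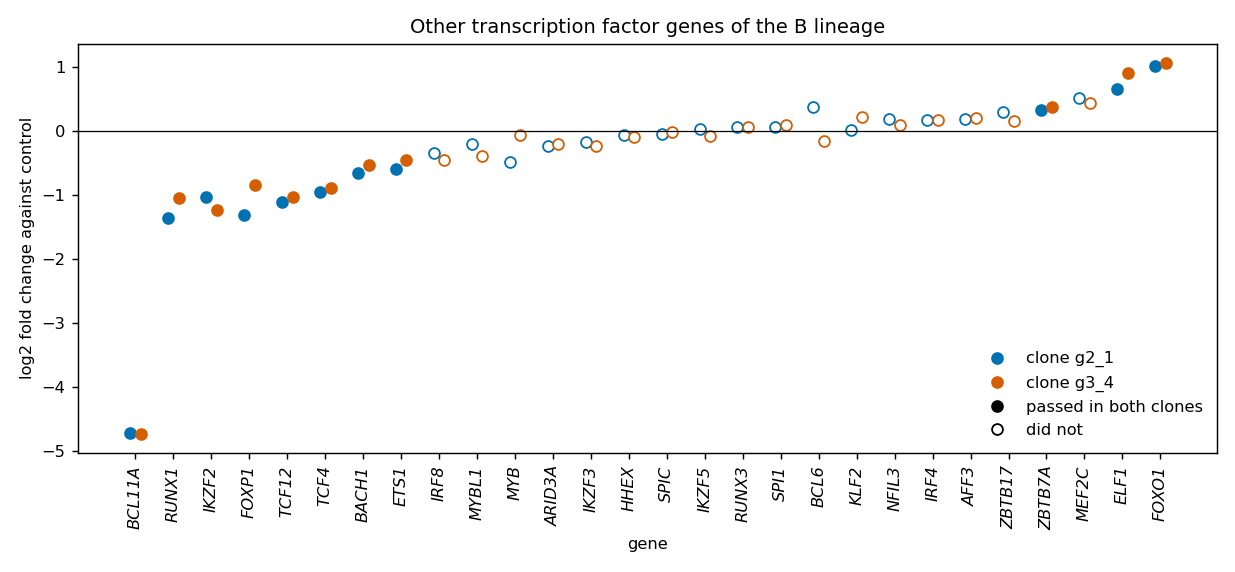
Log2 fold change against control of 28 other transcription factor genes of the B lineage in clone g2_1 (blue) and clone g3_4 (orange), ordered by the mean of both; filled points passed in both clones. BCL11A lies at -4.72 and -4.74, 7 further genes are filled below 0 and FOXO1, ELF1 and ZBTB7A are filled above it.

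EBF1, PAX5 and E2A are known to switch on the B cell receptor chains and their signalling partners. Of 20 measured targets (of 23 listed), 1 was called higher (5.0%) and 2 lower (10.0%) in both clones, near the 4.48% and 6.97% of all clusters, with medians of 0.00 and 0.04. In the control DNTT, CR2, BTK, CD24, MS4A1, RAG2, VPREB1 and VPREB3 averaged 3.86 to 4.62, below the first quartile of all values, 4.63. A fall of these genes could hardly show from that level, which limits the counts and medians of this list. BLK, a kinase of the B cell receptor pathway, rose by 0.89 in each clone (SE 0.23; limma, adjusted p = 0.0230 and 0.0234), with control arrays at 9.08, 10.22 and 9.68 and clone arrays at 10.38 to 10.66. The call of BLK held in 3 of the 9 fits that leave out an array and was lost without control array 3, g2_1 arrays 2 and 3 or any g3_4 array, with adjusted p up to 0.0887 and 0.0799. LEF1, a factor of the Wnt pathway in early B and T cells, fell from 8.49, 8.52 and 7.76 in the control to 4.63 to 4.98 on the clone arrays, a change of -3.51 and -3.39 (adjusted p = 4.17e-07 and 5.26e-07). CD37, a tetraspanin of mature B cells, fell by 1.10 and 0.81. The B cell receptor chains did not pass: CD79A differed by -0.41 and -0.15 (limma, adjusted p = 0.0597 and 0.547) and CD79B by -0.02 and 0.11. The adaptor BLNK differed by -0.78 and -0.64 (adjusted p = 0.0562 and 0.114), with its highest value, 6.27, on control array 1. Without that array BLNK differed by -0.43 and -0.30 (adjusted p = 0.0509 and 0.180), and the CD79A difference of -0.50 in g2_1 passed (0.0207). Without control array 2 BLNK passed in both clones, at -1.05 and -0.91 (0.00867 and 0.0170).

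Among 24 measured E protein inhibitors, Notch genes and factors of other blood lineages (of 25 listed), 1 was called higher and 1 lower (4.17% each) in both clones, against 4.48% and 6.97% of all clusters, with medians of 0.07 and -0.02. GATA3, a T cell factor that Hodgkin and Reed-Sternberg cells are known to express, read 9.94, 10.04 and 9.87 in the control and 8.36 to 8.62 on the clone arrays. GATA3 fell by 1.43 and 1.49 (SE 0.11; limma, adjusted p = 7.44e-06 and 5.11e-06). BCL11B, the T cell relative of BCL11A, rose by 0.40 in each clone, a call that held in both clones in 2 of the 9 fits, those without control array 1 or g3_4 array 1 (adjusted p up to 0.121 and 0.142 in the others). JAG2 changed by -0.41 in g3_4 (limma, adjusted p = 0.0496) and by -0.36 in g2_1, which did not pass (0.0851). Without control array 1 the JAG2 change in g3_4 was -0.27 and did not pass (0.101). NOTCH1 rose by 0.56 in g3_4 (adjusted p = 0.0432) and differed by 0.37 in g2_1 (adjusted p = 0.179), and NOTCH2 fell by 0.65 in g3_4 (0.0254) and differed by -0.53 in g2_1 (0.0639). In g3_4 NOTCH1 no longer passed without control array 2 or 3, g2_1 array 3 or any g3_4 array (adjusted p up to 0.155), and NOTCH2 without control array 1 or 3 or g3_4 array 1 or 2 (up to 0.0893). In g2_1 NOTCH1 passed without g2_1 array 2 (0.55; 0.0383), and NOTCH2 without control array 2 (-0.75; 0.00329).

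Plasma cell and germinal centre genes lie on either side of the step that BACH2 and PRDM1 control. Of 18 measured plasma cell genes (of 20 listed), 2 were called higher (CD9 and CREB3L2) and 2 lower (CD27 and SSR4) in both clones, 11.1% each against 4.48% and 6.97% of all clusters, with medians of -0.07 and -0.03. CD9, a tetraspanin, rose by 1.30 and 1.31, and by 0.83 and 0.84 without control array 1, on which it read 7.83 against 9.20 and 9.28 on the other control arrays. CD9 lost its call without g2_1 array 3 or g3_4 array 2 (adjusted p up to 0.0564 and 0.0577), CREB3L2 and SSR4 without g3_4 array 2 or 3 (up to 0.0772 and 0.0520 in g3_4), and CD27 without any 1 of the g3_4 arrays (up to 0.0911 in g3_4). XBP1, the factor of the secretory program downstream of PRDM1, differed by -0.03 and -0.10 and did not pass. Of 17 measured germinal centre genes (of 18 listed), 1 was called higher (P2RY8) and 3 lower (RGS13, BCL7A and S1PR2), 5.88% and 17.6% against the same 4.48% and 6.97%, with medians of 0.07 and -0.01. RGS13, a regulator of G protein signalling in germinal centre B cells, fell from 8.72, 7.39 and 8.05 in the control to 4.22 to 4.52 on the clone arrays, a change of -3.70 and -3.64 (limma, adjusted p = 3.31e-06 and 3.76e-06). P2RY8 lost its call without g2_1 array 3 (adjusted p = 0.0529), and S1PR2 without control array 1 or 2, g2_1 array 1 or 2 or g3_4 array 1 (adjusted p up to 0.119 and 0.0545). BCL6, the repressor that holds B cells in the germinal centre, differed by 0.37 and -0.16 and did not pass. BCL6 differed by 0.07 and -0.46 without control array 1, and without control array 2 by 0.75, which passed in g2_1 (limma, adjusted p = 0.0254), and 0.22.

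The genes whose values ran most closely with the 3 called factors over the 9 arrays were found by Pearson correlation, which the distance between clones and control and the place of control array 1 both shape, and are given as a description. For EBF1 these were HECA (r = 0.995), BMPR2 (0.992) and USP12 (0.990). PAX5 ran most closely with TMX4 (0.997), PAX9 (0.994), another paired box gene, and SEMA6A (0.994). POU2AF1 ran most closely with LGALS9B (0.995), whose probes may also read its near-identical copies, HOXD13 (0.994) and RILPL2 (0.993). PAX9 read 9.04, 7.43 and 7.61 in the control and 5.78 to 6.14 on the clone arrays, with control array 1 highest as it was for PAX5.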

How the data were processed

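Total RNA of 9 L-1236 samples, 250 ng each, was labelled and hybridised to Clariom S arrays, per the labels' protocols. The deposited table holds log2 values to 2 decimals, 1 per transcript cluster and array, which the authors made, per the submitters' processing notes, with RMA and Transcriptome Analysis Console 4.0; the annotation build is not given in the sources used here. RMA makes arrays share their distribution before probes are summarised. The table has no detection flags, so the level at which a signal is lost in the background is not known. The clone arrays of LEF1, RGS13 and POU2AF3 read 4.22 to 4.98 and those of BCL11A 4.66 to 5.36, beside a first quartile of all values of 4.63. Whether the background limits the size of these falls was not tested. Of 21448 rows, 555 that are not mapped were left out. limma 3.58.1 in R 4.3.3 fitted 1 mean per group over the 9 deposited columns (lmFit, eBayes, two-sided), and p-values were adjusted by Benjamini-Hochberg over 20893 clusters; the procedure was tested on simulated data. Precision is limited by 3 arrays a group. Groups came from the sample labels. Gene names came from the platform annotation (17705 rows with a symbol), where a gene with several rows was read from the row with the highest mean. Promoter windows came from RefSeq (GRCh38.p14).

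The members, gene lists and tests were chosen with earlier results of these data known. All 10 members were named. Of each list the text names up to 4 genes per direction by mean change in both clones, with all of the target and inhibitor genes open to be named. Outside this rule it also names TCF12, TCF4, BACH1, ETS1, SPI1, IRF4, IKZF3, XBP1 and BCL6. Neighbours were the 25 nearest measured genes on each side. Alternatives were equal array medians, fits with the array number as a block, array weights, trend and robust settings, level filters, fits of the groups compared, a fold limit of 1 log2 unit and leaving out arrays. Array numbers are shared between groups, and deviations of equal numbers from their group means correlated at 0.435, 0.191 and 0.310 between the clones. Between the control and g2_1 they correlated at 0.285, 0.0426 and 0.183, and between the control and g3_4 at 0.298, 0.0565 and 0.257. All pairs were above 0.1 between the clones. Against the control, pairs numbered 1 and 3 were above 0.1 and pairs numbered 2 were not, for both clones. The labels do not say what a number marks.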

Additional observations from a re-analysis of the deposited data

Results flagged for a closer look

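The clones differed in CD70, a ligand of the tumour necrosis factor family used here as a marker of Hodgkin and Reed-Sternberg cells, by a test of the difference itself. CD70 read 11.30, 11.53 and 11.46 in g2_1, 8.41, 9.40 and 9.43 in g3_4 and 9.61, 10.37 and 10.08 in the control. The difference between g3_4 and g2_1 was -2.35 on the log2 scale (limma, adjusted p = 0.0115), while no member of the B cell factor group passed in that comparison. The difference no longer passed without g2_1 array 2 (-2.30; adjusted p = 0.135) or g2_1 array 3 (-2.33; 0.0743), and it passed without any 1 of the other 7 arrays.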

How the results depend on the processing

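Alternatives changed no direction of a called factor. Of the values of member changes under alternatives, 564 kept their side of the threshold, 16 came to pass and 11 no longer passed. The number of called factors in g3_4 rose from 3 to 5 with equal array medians and with trend and robust settings, in both cases by TCF3 and ID2. Equal medians also took the count in g2_1 from 4 to 6 (TCF3 and SPIB added) and that in both clones from 3 to 4 (TCF3). In g2_1 it fell from 4 to 2 with a fold limit of 1 log2 unit, which kept EBF1 and POU2AF1. PAX5, at -0.79 in g2_1 and -0.83 in g3_4, lay under that limit in both clones. Between the clones it was 1 in place of 0, BACH2, in fits of the groups compared and with array weights. Leaving out 1 array gave 2 to 4 factors in g2_1, 2 to 4 in g3_4, 0 to 1 between the clones (1 without control array 1) and 2 to 3 in both clones; PAX5 and POU2AF1 were called in both clones in all 9 such fits. With the array number as a replicate block, the counts were 4 in g2_1, 4 in g3_4 (with ID2 added), 0 between the clones and 3 in both. The block ended no call of a factor in either clone. With only the groups compared, EBF1 in g3_4 (adjusted p = 0.0678) and BACH2 in g2_1 (0.0572) no longer passed. The table has no flags for signal over background, so whether POU2F2 and SPIB were detected is not known.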
